A study of Mus musculus with 13 samples.

Results

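The elastic fibre genes were followed as 10 gene symbols of the deposited count table, namely Eln, Fbn1, Fbln1, Fbln2, Fbln5, Mfap2, Mfap4, Mfap5, Emilin1 and Ltbp4. The symbols were chosen by what the proteins do, though with earlier results of these data known. All 10 were found among the 32544 gene symbols of the table, and all 10 were among the 12496 genes that passed the filter on low counts. The study compared lung tissue of wild-type C57BL/6J male mice, bought at an age of 7 weeks, after 5 days at 21% oxygen (normoxia, 7 libraries) or at 80% oxygen (hyperoxia, 6 libraries). The sample labels give 7 weeks as the age, while the study's methods give an older age for the experiments. The tissue was perfused and flash frozen and RNA was taken from the homogenate, so that each library is bulk lung, and Quant-seq was used, which reads the 3′ end of polyadenylated transcripts. The labels give no transgene, deletion or drug for either group. They do not state that each library came from a mouse of its own, and the p-values measure the spread between these libraries.

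Elastic fibres give the alveolar wall, the airways and the vessels of the lung their recoil. Their core is elastin, which is secreted as soluble tropoelastin and laid down on a scaffold of microfibrils made of fibrillin and its associated glycoproteins. Fibulins and latent TGF-beta binding proteins carry tropoelastin to that scaffold, and lysyl oxidases cross-link it into an insoluble polymer. Most of this assembly belongs to lung development, elastin is among the longest-lived proteins of the body, and fibroblasts, myofibroblasts and smooth muscle cells are its main sources.

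Total counts were between 1607111 and 4540288 per library. The floor, a count of 3 in a library, corresponded to between 0.656 and 1.84 CPM, the unit in which a gene's count is set against the library total after scaling with edgeR's TMM factors. Hyperoxia replicate 1 stood apart, as its log2 CPM correlated with that of any other library at 0.721 to 0.833, while the other 12 correlated among themselves at 0.854 to 0.967, and calls that change without it are given. By the letter that opens a library's name, one name set (B to M) held 5 normoxic and 3 hyperoxic libraries and the other (O to S) held 2 normoxic and 3 hyperoxic ones, and differences within each name set are given below. Among alveolar epithelial markers, Sftpc, Sftpa1 and Lamp3 stood at 9637, 7580 and 304 CPM in normoxia (means, n = 7), and the summed CPM of the 9 genes of that list ran from 13281 to 24409 in normoxia and from 4323 to 8203 in hyperoxia, so that the defining markers of lung were present in both groups.

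Transcripts of Eln and Fbn1, which encode the core protein and the main scaffold protein of the fibre, rose in hyperoxia, while those of Fbln1 and Fbln5 fell. Of the 10 genes, 3 were higher (Eln, Fbn1 and Fbln2) and 2 lower (Fbln1 and Fbln5) at an adjusted p under 0.05 in edgeR's quasi-likelihood test, and 5 were not called. That is 50% of the elastic fibre genes, where 22.6% of all genes tested were called, 11.8% as higher and 10.8% as lower. The split of all calls depended on the scaling and the test, with 1473 higher of 2819 here, 1179 of 2758 with library size alone, 1374 of 2870 with limma-voom on the same TMM scaling and 1097 of 2826 with limma on the deposited log CPM, where the median of all genes was −0.16, while the same 5 elastic fibre genes were called with all 4, and Ltbp4 as well with library size alone (−1.14, edgeR adjusted p = 0.0490). The median log2 fold change of the 10 genes was −0.11, and that of all genes tested was −0.03. The called genes moved in both directions, and the other 5 were not called. In 4 of the 10 genes (Eln, Fbn1, Fbln1 and Fbln5) the groups did not overlap, which held for 10.8% of all genes tested. With an absolute log2 fold change over 1.5 required as well, Eln alone was called, against 3.91% of all genes tested, and Fbn1 missed that limit at 1.499. The same 5 genes were called in each of the 13 fits that left out 1 library, including the one without hyperoxia replicate 1, while with the replicate number as a block 4 were called and Fbln2 was not (0.78, edgeR adjusted p = 0.0553).

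**Figure D1:**
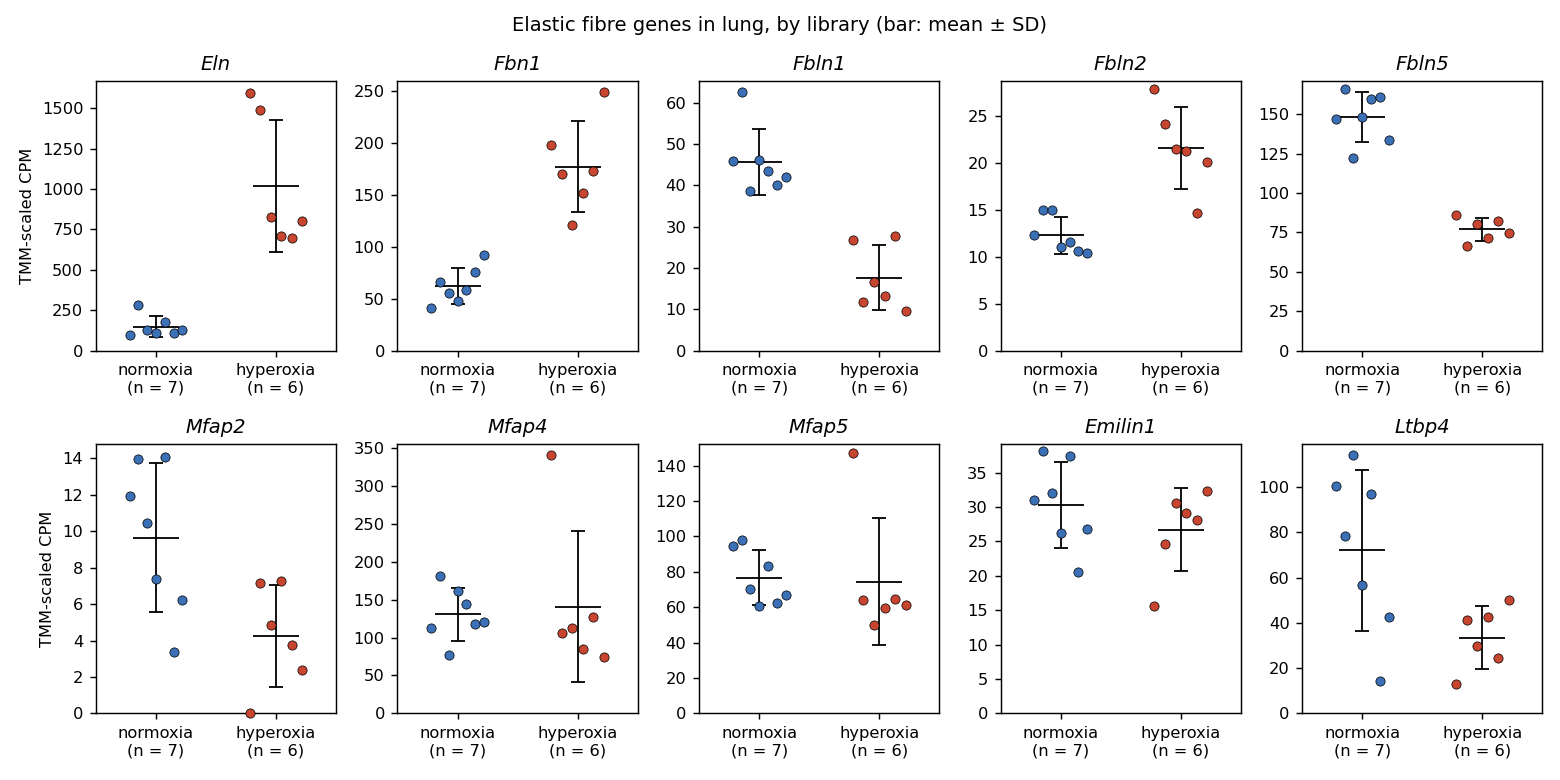
TMM-scaled CPM of each of the 10 elastic fibre genes in the 7 normoxic (blue) and 6 hyperoxic (red) libraries, 1 point per library, with the mean and SD as a black bar. The groups lie apart for Eln, Fbn1, Fbln1 and Fbln5, and 1 hyperoxic library stands far above the others for Mfap4 (340 CPM) and Mfap5 (147 CPM).

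Eln encodes tropoelastin. In GRCm38 it occupies chromosome 5 from 134702593 to 134747323 on the minus strand and overlaps 1 annotated gene, Gm30003, on the opposite strand. In normoxia its level was lowest at 97.1 CPM, had a median of 127 CPM and was highest at 285 CPM, in replicate 2. In hyperoxia the lowest library stood at 699 CPM, the median was 816 CPM and the highest was 1593 CPM. Every hyperoxic library was therefore above every normoxic one, and hyperoxia replicates 1 and 2, at 1593 and 1487 CPM, were well above the other 4, which lay between 699 and 830 CPM. The means were 149 ± 65.4 CPM (SD, n = 7) and 1020 ± 407 CPM (SD, n = 6), which is 6.87-fold or 2.78 on the log2 scale, with a standard error of 0.29 (edgeR adjusted p = 8.2e-06). Within the name sets, mean log2 CPM differed by 3.07 (B to M) and by 2.63 (O to S). Without hyperoxia replicate 1 the log2 fold change was 2.63.

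Fbn1 encodes fibrillin 1, the main protein of the microfibril scaffold, and lies on chromosome 2 from 125300594 to 125507993 on the minus strand, where it overlaps Gm9913 on the opposite strand. Its level ran from 41.4 to 92.2 CPM in normoxia, with a median of 58.8 CPM, and from 121 to 249 CPM in hyperoxia, with a median of 172 CPM. Again no hyperoxic library reached down into the normoxic range. The highest library was hyperoxia replicate 6, whereas it was replicate 1 for Eln. The means were 62.6 ± 17.3 CPM (SD, n = 7) and 177 ± 43.5 CPM (SD, n = 6), a 2.83-fold difference, or 1.499 on the log2 scale with a standard error of 0.20 (edgeR adjusted p = 8.0e-05). Mean log2 CPM differed by 1.57 in name set B to M and by 1.16 in O to S.

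The 3 fibulin genes differed in direction. Fibulins are calcium-binding glycoproteins with EGF-like modules, and fibulin 5 binds tropoelastin and integrins and is needed for elastic fibre assembly in mice. Fbln5 lies on chromosome 12 from 101746565 to 101819055 on the minus strand. It stood between 122 and 166 CPM in normoxia (median 148) and between 66.5 and 86.3 CPM in hyperoxia (median 77.5). The groups were narrow and did not overlap, with means of 148 ± 15.8 CPM (SD, n = 7) and 76.9 ± 7.37 CPM (SD, n = 6). Its log2 fold change was −0.95 (standard error 0.12, edgeR adjusted p = 5.8e-05), or 1.93-fold lower, and the difference within the name sets was −0.93 and −0.94.

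Fbln1, on chromosome 15 from 85205949 to 85286535 on the plus strand, encodes fibulin 1, a protein of elastic fibres and basement membranes. It ran from 38.6 to 62.5 CPM in normoxia (median 43.5) and from 9.62 to 27.8 CPM in hyperoxia (median 14.9). The highest hyperoxic libraries, replicates 5 and 1, stayed below the lowest normoxic one. Its log2 fold change was −1.38 (standard error 0.25, edgeR adjusted p = 8.5e-04), with means of 45.5 ± 8.00 CPM (SD, n = 7) and 17.6 ± 7.85 CPM (SD, n = 6). Fbln2, on chromosome 6 from 91212455 to 91272540 on the plus strand, encodes fibulin 2, which shares its module order with fibulin 1 and is found at vessel walls. It was low, between 10.4 and 15.0 CPM in normoxia (median 11.6) and between 14.7 and 27.9 CPM in hyperoxia (median 21.4). In 5 of 6 hyperoxic libraries Fbln2 was above every normoxic library, and replicate 5 lay within the normoxic range. Its log2 fold change was 0.80 (standard error 0.19, edgeR adjusted p = 0.0057), with means of 12.3 ± 1.97 CPM (SD, n = 7) and 21.6 ± 4.38 CPM (SD, n = 6). Mean log2 CPM in name sets B to M and O to S differed by −1.39 and −1.39 for Fbln1, and by 0.88 and 0.78 for Fbln2.

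Sequence before a RefSeq start site is shown for the called genes that had such a window, for those that rose (Fbn1, Fbln2) and those that fell (Fbln1, Fbln5), so that it can be read beside its direction. Windows were matched by symbol for 7 of the 10 genes, and where a gene had several, the one nearest to the annotated gene start was taken. The windows of Fbn1 and Fbln2 lie inside the GENCODE spans of these genes given above, since the RefSeq start site used is downstream of the GENCODE gene start, and those of Fbln1 and Fbln5 lie before it. Each sequence holds the 250 bases before the RefSeq start site in GRCm38.p6, written 5′ to 3′ on the strand of the gene, chr2:125506439-125506688 on the minus strand for Fbn1, chr6:91212514-91212763 on the plus strand for Fbln2, chr15:85205699-85205948 on the plus strand for Fbln1 and chr12:101819120-101819369 on the minus strand for Fbln5. Capitals mark matches, on either strand, to any of 5 motifs that were searched. The AP-1 motif was spelled TGACTCA, the motif of TEAD factors was spelled GGAATG, that of SMAD proteins was searched as CAGAC, the GC box of Sp1 was searched as GGGCGG, and for the TATA box the spelling used was TATAAA. No match of one motif overlapped a match of another in these windows.
Fbn1: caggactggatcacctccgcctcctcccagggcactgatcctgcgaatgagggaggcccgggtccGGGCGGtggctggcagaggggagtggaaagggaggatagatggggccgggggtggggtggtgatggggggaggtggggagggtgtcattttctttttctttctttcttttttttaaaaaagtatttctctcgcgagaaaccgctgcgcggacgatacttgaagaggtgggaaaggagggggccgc
Fbln2: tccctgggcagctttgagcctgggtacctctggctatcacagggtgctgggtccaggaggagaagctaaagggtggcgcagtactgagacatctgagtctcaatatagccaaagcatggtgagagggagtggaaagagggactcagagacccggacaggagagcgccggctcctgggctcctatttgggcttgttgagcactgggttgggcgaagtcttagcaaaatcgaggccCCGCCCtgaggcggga
Fbln1: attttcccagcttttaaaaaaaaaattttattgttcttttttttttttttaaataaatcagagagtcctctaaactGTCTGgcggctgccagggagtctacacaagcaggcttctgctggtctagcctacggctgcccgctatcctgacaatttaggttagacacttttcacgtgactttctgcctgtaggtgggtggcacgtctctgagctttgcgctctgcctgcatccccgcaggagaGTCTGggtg
Fbln5: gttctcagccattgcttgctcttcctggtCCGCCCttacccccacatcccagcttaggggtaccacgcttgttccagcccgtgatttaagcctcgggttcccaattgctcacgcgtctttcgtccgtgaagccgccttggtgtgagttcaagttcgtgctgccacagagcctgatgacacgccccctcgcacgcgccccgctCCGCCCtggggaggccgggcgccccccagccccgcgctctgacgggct

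A GC box stood once in the windows of Fbn1 and Fbln2 and in 2 places in that of Fbln5, and the SMAD motif stood in 2 places in that of Fbln1. The letters of the AP-1, TEAD and TATA motifs were in none of the 4 windows. Among all 32851 windows of the same length, 32.7% held the GC box, 42.2% the SMAD motif, 12.6% the TEAD motif, 12.4% the TATA box and 4.46% the AP-1 motif. The GC content of the 4 windows was 59.2% for Fbn1, 58.8% for Fbln2, 46.4% for Fbln1 and 65.2% for Fbln5. Matches of this length describe the letters of the window and do not show a bound site.

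Among the microfibril-associated glycoproteins, none was called. Mfap2 and Mfap5 encode the small proteins MAGP1 and MAGP2, which bind fibrillin, and Mfap4 encodes a fibrinogen-related protein that binds tropoelastin and fibrillin. Mfap2, on chromosome 4 from 141010418 to 141015984, was near the floor, with 0 to 40 counts per library. It stood between 3.34 and 14.1 CPM in normoxia (median 10.5) and between 0 and 7.27 CPM in hyperoxia (median 4.31), where the count of 0 in replicate 1 allows up to 1.61 CPM. Its log2 fold change of −1.13 did not pass the threshold (standard error 0.47, edgeR adjusted p = 0.102), with means of 9.64 ± 4.10 CPM (SD, n = 7) and 4.24 ± 2.82 CPM (SD, n = 6), although DESeq2 called it (−1.13, adjusted p = 0.0435). The name sets differed widely for Mfap2, with −1.96 in mean log2 CPM within B to M, which holds the library at 0, and −0.15 within O to S.

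Mfap4, on chromosome 11 from 61485431 to 61488900, overlaps Mapk7 on the opposite strand. It ran from 77.2 to 181 CPM in normoxia (median 120) and from 73.9 to 340 CPM in hyperoxia (median 109). The value of 340 CPM was that of hyperoxia replicate 1, and the next library stood at 127 CPM. The log2 fold change was 0.10 with all libraries (standard error 0.31, edgeR adjusted p = 0.849) and −0.35 without that one (standard error 0.20, edgeR adjusted p = 0.194). Mfap5, on chromosome 6 from 122505845 to 122529290, behaved alike in that library, at 147 CPM against 50.0 to 64.7 CPM in the other hyperoxic libraries and 60.6 to 98.2 CPM in normoxia (median 70.3). Its log2 fold change was −0.05 (standard error 0.23, edgeR adjusted p = 0.908), and −0.34 without replicate 1 (standard error 0.15, edgeR adjusted p = 0.0958). Within B to M and O to S, mean log2 CPM differed by 0.30 and −0.35 for Mfap4 and by −0.04 and −0.06 for Mfap5. For neither gene did the sign hold over the alternative settings.

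Emilin1, on chromosome 5 from 30913402 to 30921277, encodes a glycoprotein at the interface of elastin and microfibrils that restrains TGF-beta maturation. It stood between 20.6 and 38.1 CPM in normoxia (median 31.0) and between 15.5 and 32.4 CPM in hyperoxia (median 28.6), with the lowest value in replicate 1. The log2 fold change was −0.17 (standard error 0.19, edgeR adjusted p = 0.579), and its approximate 95% interval of 1.96 standard errors ran from −0.55 to 0.21, so that a change as large as that of Fbln5 lies outside it. The difference in mean log2 CPM had opposite signs in the name sets, −0.51 within B to M and 0.33 within O to S.

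Ltbp4 encodes a latent TGF-beta binding protein that works with fibulin 5 in elastin assembly, and its loss in mice damages the elastic fibres of the lung. The gene lies on chromosome 7 from 27305136 to 27337692 on the minus strand. Its normoxic libraries were widely spread, from 14.5 CPM in replicate 6 over a median of 78.6 CPM to 114 CPM in replicate 3, and the hyperoxic ones ran from 12.9 to 50.1 CPM (median 35.5). The means were 72.0 ± 35.7 CPM (SD, n = 7) and 33.5 ± 13.7 CPM (SD, n = 6), a log2 fold change of −1.08 that narrowly missed the threshold (standard error 0.39, edgeR adjusted p = 0.0564). The name sets disagreed. Mean log2 CPM differed by −1.76 within B to M, where the 5 normoxic libraries lay between 56.9 and 114 CPM, and 0.57 within O to S, where the 2 normoxic libraries stood at 14.5 and 42.8 CPM. Without normoxia replicate 6 the gene was called (−1.26, edgeR adjusted p = 0.0071), as it was without normoxia replicate 7 (−1.17, edgeR adjusted p = 0.0479) or hyperoxia replicate 6 (−1.22, edgeR adjusted p = 0.0482). It was farther from the threshold with the name set as a covariate (−0.85, edgeR adjusted p = 0.197), with limma-voom (−0.86, adjusted p = 0.196) and with the replicate block (−1.11, edgeR adjusted p = 0.213).

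**Figure D2:**
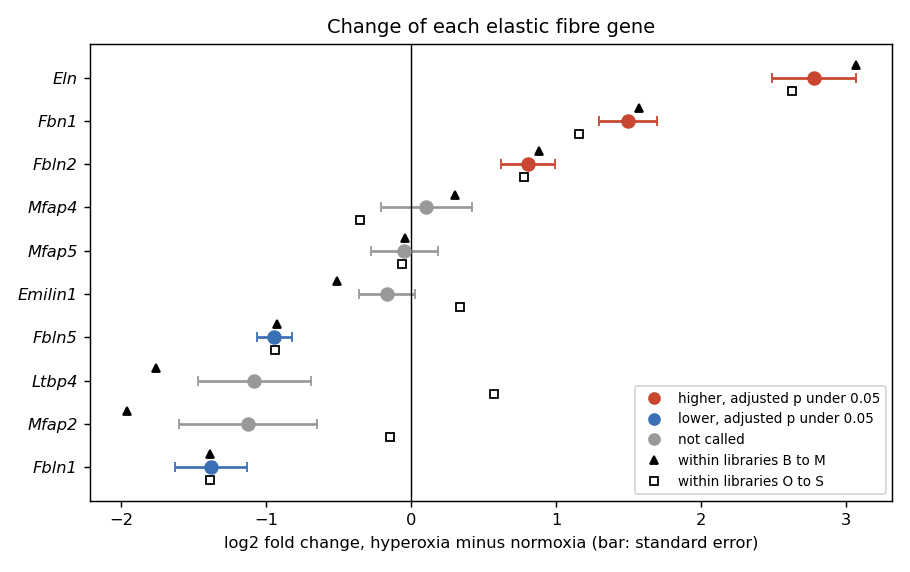
Log2 fold change of each elastic fibre gene between hyperoxia and normoxia (horizontal axis, edgeR fit of all 13 libraries, bar: standard error), with the difference in mean log2 CPM within the libraries named B to M (triangles) and O to S (squares). Eln, Fbn1 and Fbln2 lie above 0 and Fbln5 and Fbln1 below 0 in both name sets, whereas Ltbp4, Emilin1 and Mfap4 lie on opposite sides of 0 in the name sets.

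Ratios of pairs of these genes within a library need no scaling between libraries, and 4 pairs were compared with an exact permutation test over all 1716 ways to assign the labels (2-sided on the absolute difference, smallest possible p = 0.000583, adjusted over the 4 pairs). A count of 1 was added to each gene. The log2 ratio of Fbln5 to Eln was 0.08 ± 0.49 in normoxia (SD, n = 7) and −3.64 ± 0.56 in hyperoxia (SD, n = 6), a difference of −3.72. Since neither gene overlapped between the groups and they moved in opposite directions, the smallest p was fixed by the choice of this pair, and none is read from it. In counts, Fbln5 and Eln were near parity in normoxia and Eln exceeded Fbln5 in each of the 6 hyperoxic libraries, a shift of the ratio by 13.2-fold.

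Fbln2 to Fbln1 moved from −1.85 ± 0.24 (SD, n = 7) to 0.38 ± 0.74 (SD, n = 6), a difference of 2.23 without overlap. Here too the genes were called in opposite directions and Fbln1 did not overlap, so no p is read from this pair. The sign of this ratio was negative in every normoxic library and positive in each hyperoxic library except replicate 5, at −0.91. Eln to Fbn1 moved from 1.19 ± 0.57 (SD, n = 7) to 2.47 ± 0.58 (SD, n = 6), a difference of 1.28, so that the rise of Eln exceeded that of Fbn1 (exact permutation p = 0.0029, unadjusted). Its exact permutation adjusted p of 0.0039 also counts Fbln5 to Eln and Fbln2 to Fbln1, from which no p is read. The pair Eln to Fbn1 too was chosen with earlier results known. Of the hyperoxic libraries, 4 were above every normoxic one in Eln to Fbn1, and the libraries named O to S had the lowest values of both groups. For Mfap5 to Mfap2 the difference of 1.28 did not pass the threshold (exact permutation adjusted p = 0.0583). This value leans on the count of 0 of Mfap2 in hyperoxia replicate 1 and was 0.52 without that library. Within name sets B to M and O to S the differences were 2.03 and 0.11 for this pair, 1.497 and 1.475 for Eln to Fbn1, 2.30 and 2.21 for Fbln2 to Fbln1, and −4.00 and −3.58 for Fbln5 to Eln.

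**Figure D3:**
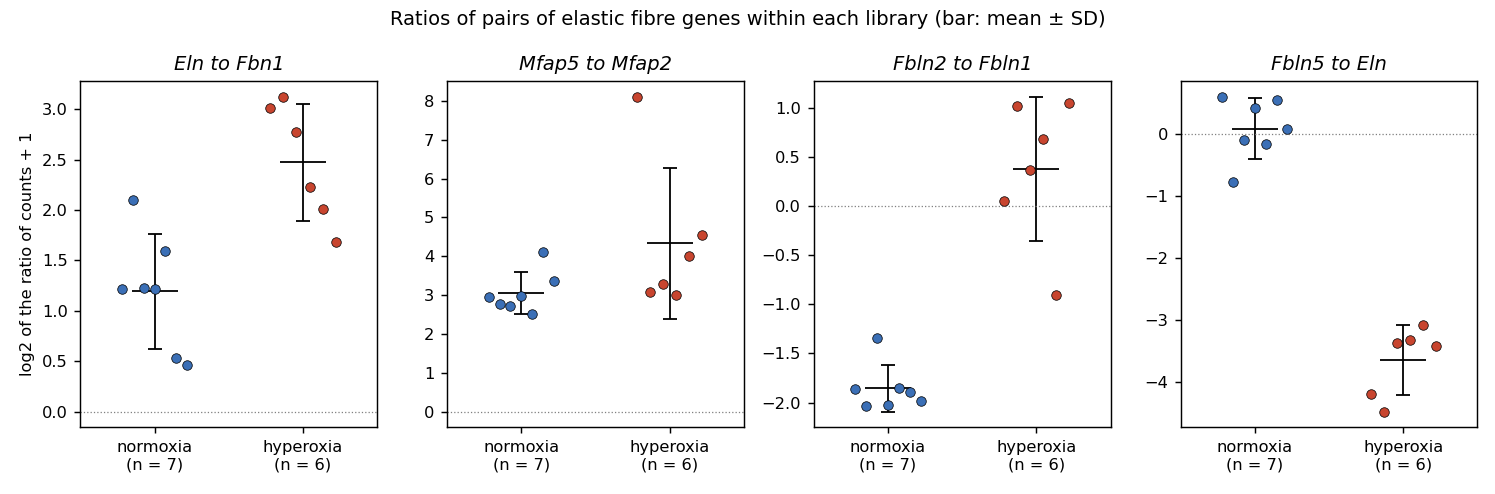
Log2 ratio of the counts of 2 elastic fibre genes within each library (vertical axis, 1 added to each count), for the 7 normoxic (blue) and 6 hyperoxic (red) libraries, with the mean and SD as a black bar. Fbln5 to Eln and Fbln2 to Fbln1 separate the groups, Eln to Fbn1 overlaps in 2 hyperoxic libraries, and Mfap5 to Mfap2 holds 1 hyperoxic library at 8.10.

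Other genes of the pathway were followed with 8 lists of 74 genes in all, of which 57 were tested. By edgeR's test 13 rose and 7 fell, 35.1% of those tested and against 22.6% of all genes, with a median log2 fold change of 0.02, and without hyperoxia replicate 1 the count was 17 higher and 11 lower, in a fit that called 3633 of 12752 genes. Among 12 relatives of the elastic fibre genes, 9 were tested and their median log2 fold change was −0.48. Mmrn2 (multimerin 2, an endothelial relative of the emilins) rose from 76.9 ± 15.2 to 308 ± 111 CPM, by 2.00 on the log2 scale (edgeR adjusted p = 1.7e-05), and Hmcn1 (hemicentin 1, also counted as a fibulin) fell by 0.99 (edgeR adjusted p = 0.0059). Ltbp3, at −0.48, was not called with all libraries (edgeR adjusted p = 0.0827). Efemp1 (fibulin 3), named after its values were seen, had groups that did not overlap, from 45.8 to 78.8 CPM in normoxia and from 0 to 43.8 CPM in hyperoxia, but was not called (−1.12, edgeR adjusted p = 0.0837), whereas without hyperoxia replicate 1 both Ltbp3 and Efemp1 were. Fbn2, Fbln7 and Emilin3 did not pass the filter.

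The lysyl oxidases, which cross-link elastin and collagen, lay on 1 side of 0. Of 5 genes, 4 were tested, all 4 had a log2 fold change above 0 (median 0.46), as had 47.8% of all genes tested, and 3 were higher, where 11.8% of all genes were. The same 3 were higher without hyperoxia replicate 1. Lox, whose product is the main cross-linking enzyme of elastin in development, had means of 27.0 ± 5.20 CPM in normoxia (SD, n = 7) and of 136 ± 61.3 CPM in hyperoxia (SD, n = 6) without overlap, and rose by 2.33 on the log2 scale with a standard error of 0.25 (edgeR adjusted p = 1.1e-05). Loxl1, which is tied to elastic fibre upkeep in adults, rose by a log2 fold change of 0.53 (edgeR adjusted p = 0.0308) and Loxl2 by 0.39 (edgeR adjusted p = 0.0434), while Loxl3 stood at 0.24 (edgeR adjusted p = 0.246). Loxl4 did not pass the filter.

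Of 9 ADAMTS and ADAMTSL genes, whose products bind or process fibrillin microfibrils, 8 were tested and 1 was above 0. Adamtsl2, the exception, rose from 8.87 ± 2.77 to 21.4 ± 10.9 CPM (log2 fold change 1.26, edgeR adjusted p = 0.0146), and Adamts10, which favours fibrillin 1 assembly, fell from 34.8 ± 8.73 to 14.5 ± 3.04 CPM without overlap (−1.25, edgeR adjusted p = 6.5e-04). Adamtsl1, at −0.48, was not called (edgeR adjusted p = 0.0946), but was without hyperoxia replicate 1 (−0.58, edgeR adjusted p = 0.0286). The median of the list was −0.23.

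Of 11 enzymes that can cut elastin or activate such enzymes, 7 were tested (median 0.55), and 1 was higher and 1 lower. Mmp14, a membrane-bound metalloproteinase, rose (0.85, edgeR adjusted p = 0.0110). Mmp12, the macrophage elastase, fell from 50.0 ± 10.6 to 30.7 ± 14.6 CPM (−0.69, edgeR adjusted p = 0.0498), and this call was lost without hyperoxia replicate 1 (−0.57, edgeR adjusted p = 0.0733). Mmp9, a gelatinase, stood at −1.12 and was not called (edgeR adjusted p = 0.0606). Without that library Mmp9 was called (−1.36, edgeR adjusted p = 0.0157), as were the cathepsin genes Ctsk (1.58, edgeR adjusted p = 0.0018) and Ctsl (0.75, edgeR adjusted p = 0.0044), which makes 3 higher and 1 lower. The neutrophil elastase gene Elane and Mmp7 had no count in any library, and Prtn3 and Cela1 did not pass the filter. Among 13 inhibitors, 7 were tested (median 0.26), 2 of which were higher and none lower. Timp1, an inhibitor of metalloproteinases, rose from 3.47 ± 3.09 to 42.2 ± 27.4 CPM (log2 fold change 3.73, edgeR adjusted p = 3.4e-04), and Timp3, which is bound to the matrix, from 174 ± 26.6 to 306 ± 45.7 CPM (0.81, edgeR adjusted p = 8.2e-04). Cst3, a cathepsin inhibitor, stood at −1.21 and was not called (edgeR adjusted p = 0.104), but was without hyperoxia replicate 1 (−0.95, edgeR adjusted p = 0.0385).

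Of 11 genes for the elastin receptor complex and for integrins that bind fibrillin or fibulin, 10 were tested (median 0.21), with 3 higher and 2 lower, also without hyperoxia replicate 1. Itga8, the integrin subunit alpha 8 of alveolar fibroblasts and smooth muscle, fell from 101 ± 5.12 to 32.3 ± 8.20 CPM without overlap (−1.64, edgeR adjusted p = 4.3e-06). Itgb1, the common beta 1 subunit and partner of alpha 8, rose from 311 ± 46.7 to 661 ± 167 CPM without overlap (1.09, edgeR adjusted p = 2.9e-04), and Ctsa, which encodes the protective protein of the elastin receptor complex, fell (−0.76, edgeR adjusted p = 0.0083). Of 7 genes for TGF-beta ligands and their receptors, all of them tested (median −0.30), Lrrc32, which holds latent TGF-beta at the cell surface, rose (1.199, edgeR adjusted p = 0.0011), and Tgfbr3 (−1.15, edgeR adjusted p = 0.0173) and Tgfb3 (−0.93, edgeR adjusted p = 0.0452) fell. Without hyperoxia replicate 1 the receptor gene Tgfbr2 was also called (0.63, edgeR adjusted p = 0.0042). Of 6 proteoglycan genes of microfibrils, 5 were tested (median 0.06). Vcan, which encodes versican, a large proteoglycan that binds fibrillin and fibulins, rose from 12.2 ± 1.25 to 126 ± 39.5 CPM without overlap (3.35, edgeR adjusted p = 8.5e-08), and Fmod (−0.71, edgeR adjusted p = 0.151) and Bgn (0.51, edgeR adjusted p = 0.199) were not called, although Bgn was without hyperoxia replicate 1 (0.67, edgeR adjusted p = 0.0481).

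**Figure D4:**
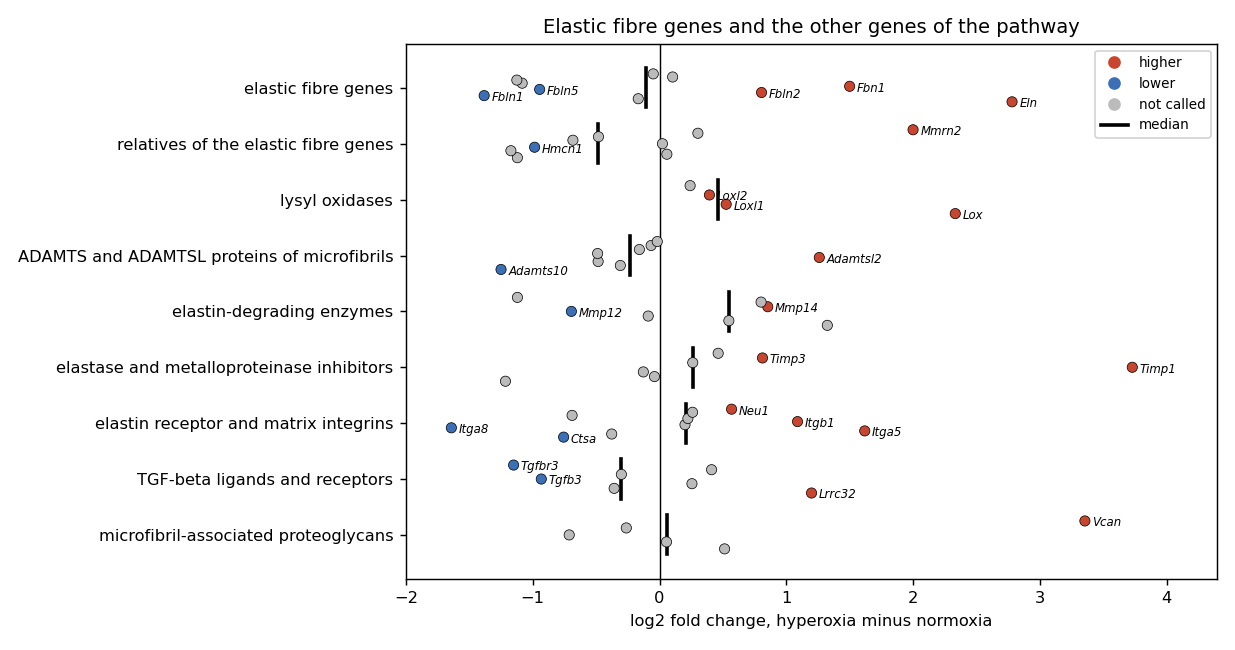
Log2 fold change between hyperoxia and normoxia (horizontal axis) of every tested gene of the elastic fibre list and of 8 lists of the same pathway, 1 point per gene, red where higher and blue where lower at an adjusted p under 0.05, grey where not called, with each list's median as a black line. Lox, Vcan and Timp1 lie near or beyond Eln, and the lysyl oxidases lie above 0 throughout.

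The likeness of other genes to Eln and Fbn1 was measured as the root mean square difference of mean-centred log2 CPM over the 13 libraries. Nearest to Eln were Ddah1 (0.43), Aen (0.45), Cd93 (0.45), Mthfd2 (0.48) and Col4a1 (0.49), where the median over all genes tested was 1.59. Nearest to Fbn1 were Iffo2 (0.17), Nes (0.21), Slc2a9 (0.25), Ddx21 (0.30) and Filip1l (0.31), with a median of 0.98. No elastic fibre gene was among the 5 nearest of either. The measure spans both groups and so holds the difference between them, and genes with a like log2 fold change rank near. Eln stood at 2.78, Fbn1 at 1.499 and the next higher elastic fibre gene, Fbln2, at 0.80. The absence of elastic fibre genes therefore follows largely from these fold changes and is no separate result. Likeness within a group was not tested.

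In bulk lung, fewer cells of a type and less RNA per cell cannot be told apart, and markers of cells that could hold the elastic fibre transcripts were read from the same fit, which called 22.6% of all genes. For smooth muscle cells and myofibroblasts, all 10 markers were tested, 3 were higher (among them Des at 0.96, edgeR adjusted p = 9.7e-04) and 2 lower (Hhip at −1.23 and Synpo2 at −0.82, edgeR adjusted p = 8.2e-04 and 0.0033), and the summed CPM of the list ran from 375 to 503 in normoxia and from 513 to 885 in hyperoxia, highest in replicate 1. For alveolar fibroblasts, 9 of 10 markers were tested, 2 were higher (Plin2 at 2.14 and Pdgfra at 1.19, edgeR adjusted p = 8.2e-05 and 1.1e-04) and 4 lower, among them Itga8 again, and the sum ran from 2709 to 3161 CPM and from 2083 to 3147 CPM. For adventitial fibroblasts, 8 of 10 were tested and 1, Igfbp4, was higher (0.52, edgeR adjusted p = 0.0156), with sums of 1013 to 1292 CPM and of 1240 to 2027 CPM. Among pericyte markers, 7 of 8 were tested, Trpc6 was higher (1.24, edgeR adjusted p = 0.0067) and Cox4i2 lower (−0.80, edgeR adjusted p = 0.0489), and the sum ran from 178 to 268 CPM and from 114 to 281 CPM. Called were thus 5 of 10, 6 of 9, 1 of 8 and 2 of 7 markers of these 4 lists, and the last pair is below or near the share of all genes. Without hyperoxia replicate 1, in the fit that called 3633 of 12752 genes, the counts were 2 higher and 2 lower for smooth muscle, 2 and 6 for alveolar fibroblasts, 2 and 1 for adventitial fibroblasts, and 1 and 0 for pericytes, where Cox4i2 was no longer called. The part of these cell types in the changes of the elastic fibre genes was not tested.

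Cells that make little elastin or come with large vessels and airways were followed in the same way. Of 6 mesothelial markers, 5 were tested and 3 were lower, and the sum ran from 117 to 222 CPM and from 63.2 to 128 CPM in the groups. All 8 markers of cardiomyocytes, which line the pulmonary veins of mice, were tested and 4 were lower, with sums of 93.7 to 301 CPM and 4.83 to 324 CPM, the lowest in hyperoxia replicate 1. Chondrocyte markers summed to no more than 0.557 CPM (normoxia) or 0.875 CPM (hyperoxia), with Acan, Comp and Matn1 at 0 in every library. Of 8 endothelial markers, all of them tested, 1 was higher and 2 lower, with sums of 3245 to 5537 CPM and 2517 to 5969 CPM. Leukocyte markers were lower in 4 of 7 tested and summed to 2614 to 4235 CPM in normoxia and 575 to 1349 CPM in hyperoxia, and 4 of the 9 alveolar epithelial markers were lower and none higher. Without hyperoxia replicate 1, where more of all genes were called as well (3633 of 12752 against 2819 of 12496), 4 of 6 mesothelial, 5 of 9 alveolar epithelial and 5 of 7 leukocyte markers were lower, endothelial markers were higher in 2 and lower in 3 of 8, and the count for cardiomyocytes was 4 lower of 8 again.

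The elastic fibre genes also ranked the libraries differently. In normoxia, replicate 2 was highest for 6 of the 10 genes (Eln, Fbln1, Fbln5, Mfap4, Mfap5 and Emilin1) while replicate 6 was lowest for 3 (Mfap2, Emilin1 and Ltbp4) and replicate 3 for another 3 (Fbln1, Fbln5 and Mfap4). In hyperoxia, replicate 1 was highest for 5 genes (Eln, Fbln2, Fbln5, Mfap4 and Mfap5) and lowest for another 3 (Mfap2, Emilin1 and Ltbp4). Replicate 6 was highest for 3 (Fbn1, Emilin1 and Ltbp4).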

How the data were processed

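RNA of perfused mouse lung was sequenced in 13 libraries with Quant-seq. Reads were assigned to transcripts by the authors with kallisto, run through BioJupies. Deposited were whole-number counts per gene symbol, neither filtered nor normalized, and a log10 table of CPM with 1 added, where CPM was relative to the library total (recomputed from the counts to within 4.4e-16). The submitters' processing notes name mm10 and limma 3.54.2. The annotation and the use of strand in counting are not given in the sources used here. All columns belonged to the 13 samples, with 0 unmapped.

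Counts were tested with edgeR 4.0.16 in R 4.3.3 (TMM, filterByExpr, glmQLFit, glmQLFTest, no covariate, Benjamini-Hochberg over 12496 genes, threshold 0.05). A standard error is the absolute log2 fold change over the root of F, and log2 CPM used a prior count of 2. On simulated counts of 12534 genes with 200 changed by a log2 fold change of 2, at the dispersion of 0.106 estimated here, 100% were recovered and 3.85% of the calls were false. The changed genes were drawn from those at 10 to 200 CPM, every gene had the same dispersion, and no library stood apart. These rates therefore do not cover smaller changes, such as those of Fbn1, Fbln1, Fbln2 and Fbln5, or lower genes such as Mfap2. Alternatives were DESeq2 1.42.0, limma-voom and limma on log CPM (limma 3.58.1), library size alone, RLE factors, testing every gene, keeping genes with 10 or more counts throughout, a replicate block, the letter set of the library names as a term, leaving out each library, and pseudocounts of 0.5 and 5 for the ratios. Positions are from GENCODE M21 (GRCm38), matched by symbol, and promoter windows from RefSeq (GRCm38.p6).

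The genes, lists and tests were chosen with earlier results of these data known. Named genes are the 10 elastic fibre genes, at most the 3 genes with the smallest adjusted p of each other list, all genes of lists of 5 or fewer, and the 5 genes nearest to Eln and to Fbn1. Other genes are named as members of a count. Itga8 and Dcn stand in 2 lists each. Floors cover counting error only, and the interval of a log2 fold change rests on the spread between libraries.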

Additional observations from a re-analysis of the deposited data

Results flagged for a closer look

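For 16 quantities (the 10 elastic fibre genes in log2 CPM, the 4 ratios, the total count and how closely a library correlated on average with the rest), the gap between the highest or lowest library of a group and its nearest neighbour was divided by the range of the group. The ratio was above Dixon's 95% critical value in 7 of 32 groups, where 1 in 20 by chance gives 1.6, and 4 of the 7 concerned hyperoxia replicate 1. That library was highest for Mfap4, at a log2 CPM of 8.41 against 7.00 in the next (ratio 0.645), highest for Mfap5, at 7.21 against 6.03 (ratio 0.762), highest in the log2 ratio of Mfap5 to Mfap2, at 8.10 against 4.55 (ratio 0.696), and lowest in its mean correlation with the rest, at 0.779 against 0.886 (ratio 0.763). Normoxia replicate 2 was highest for Fbln1, at 5.98 against 5.55 (ratio 0.633). Normoxia replicate 3 was highest in the log2 ratio of Fbln2 to Fbln1, at −1.34 against −1.85 (ratio 0.734), and still below every hyperoxic library. Normoxia replicate 5 had the lowest total count, 1607111 against 2696280 (ratio 0.612).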

How the results depend on the processing

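Eln, Fbn1, Fbln1 and Fbln5 kept their direction and their call in all 13 fits that left out 1 library and in all 9 other fits, with log2 fold changes of 2.63 to 3.05 for Eln, 1.40 to 1.63 for Fbn1, −1.55 to −1.22 for Fbln1 and −1.02 to −0.87 for Fbln5. Fbln2 kept its direction (0.68 to 0.91) and lost its call in the replicate block (0.78, edgeR adjusted p = 0.0553). The number of elastic fibre genes called was 5 or 6 when 1 library was left out, 7 with DESeq2, which added Mfap2 and Ltbp4 and called 3307 of 12491 genes in all, and 1 with a log2 fold change over 1.5 required as well. That limit left 488 of all genes and 6 of the other pathway genes. Without 1 library, the count of all genes was 2305 to 3633, that of the other pathway genes 15 to 28, and the median of the elastic fibre genes −0.34 (without hyperoxia replicate 1) to −0.015.

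Mfap4 turned to −0.079 with limma-voom, −0.13 with limma on the deposited log CPM and −0.080 in the replicate block, and ran from −0.35 to 0.28 without 1 library. Mfap5 turned to 9.8e-05 with DESeq2, 0.0056 without a filter and 0.028 when the name set was a covariate, and ran from −0.34 to 0.082 without 1 library. Leaving out 1 library, the ratio of Mfap5 to Mfap2 ran from 0.52 (without hyperoxia replicate 1) to 1.54 and passed without hyperoxia replicates 2, 3 or 4 or normoxia replicate 6. The cause was not tested.

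The labels number the libraries of both groups, but the numbers do not pair them. The correlation of their deviations from the group means was between −0.33 and 0.27 over 6 pairs, over 0.1 in 1 pair, and 0 hyperoxic libraries correlated best with their own number. With this replicate block, in 12 libraries, 1291 of all genes were called against 2819, 4 elastic fibre genes, and 12 other pathway genes against 20, and the ratio of Mfap5 to Mfap2 passed (1.33, exact sign-flip adjusted p = 0.0313). That is the smallest p this test can give with 6 pairs, and all 4 ratios had it. Ltbp4 was also called when 10 or more counts were required in every library (−1.14, edgeR adjusted p = 0.0425), a filter that left Mfap2 without a value. Mfap2 had at most 40 counts per library, and the part of depth in its missing call was not tested.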
